A study of Mus musculus with 28 samples.

Results

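Il2, the growth factor cytokine of activated T cells, was followed together with the receptor chain genes Il2ra, Il2rb, Il2rg, Il7r, Il15ra and Il21r, the transcription factor gene Stat5a, and Cish and Socs2, both of which are induced by STAT5 and restrain cytokine signalling. These 10 genes were taken by symbol from a table of 25124 genes, and 10 of 10 were found. RNA was measured in 28 libraries of CD4+ T cells of mouse small intestine, sorted out of the lamina propria as live, CD45+, CD90.2+ and TCRb+ cells. Every mouse carried the T-bet-ZsGreen reporter, so that T-bet transcription makes a green protein, and the labels give no mouse without it. Mice were SPF (specific-pathogen-free, with a gut flora) or GF (germ-free), and received either aCD3, an antibody that binds CD3 beside the T cell receptor, or an isotype control. Both SPF groups, SPF isotype and SPF aCD3, had 6 libraries, each with 3 from females and 3 from males. GF isotype had 10 libraries, 5 of each sex, and GF aCD3 had 6, of which F1 alone was from a female. Dose, time after injection and age were not used here.

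IL-2 binds a receptor made of an alpha chain (Il2ra, CD25), a beta chain (Il2rb) and the common gamma chain (Il2rg), and the gamma chain is shared with the receptors for IL-4, IL-7, IL-9, IL-15 and IL-21. These receptors signal through the kinases JAK1 and JAK3, and for IL-2, IL-7 and IL-15 mainly through STAT5, which switches on survival genes, Il2ra itself and the inhibitors CIS (Cish) and SOCS2. In T cells the receptor for IL-7 supports survival at rest and is known to fall after activation, whereas Il2 and Il2ra are known to be induced by signals through the T cell receptor. T cells in tissues such as the gut wall are largely antigen-experienced.

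A promoter search was planned for Il2, Cish and Socs2. No RefSeq promoter of Socs2 or Il2rb was at hand, so those of Il2 and Cish are shown. Each window runs from 250 bases before to 50 bases after a RefSeq start on build GRCm38.p6 (mm10) and is written 5′ to 3′ on the strand of the gene, that of Il2 at chr3:37125905-37126204 on the minus strand and that of Cish at chr9:107296409-107296708 on the plus strand. Capitals in Il2 mark GGAAA, the core that NFAT factors are known to bind, or its reverse complement TTTCC. Capitals in Cish mark TTCNNNGAA, the palindromic core that STAT5 dimers are known to bind.
Il2: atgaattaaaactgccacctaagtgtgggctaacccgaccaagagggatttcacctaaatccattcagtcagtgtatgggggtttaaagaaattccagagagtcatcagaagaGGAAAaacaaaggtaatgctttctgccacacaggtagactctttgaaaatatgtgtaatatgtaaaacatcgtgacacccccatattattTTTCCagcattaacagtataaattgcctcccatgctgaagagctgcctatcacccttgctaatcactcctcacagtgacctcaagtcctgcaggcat
Cish: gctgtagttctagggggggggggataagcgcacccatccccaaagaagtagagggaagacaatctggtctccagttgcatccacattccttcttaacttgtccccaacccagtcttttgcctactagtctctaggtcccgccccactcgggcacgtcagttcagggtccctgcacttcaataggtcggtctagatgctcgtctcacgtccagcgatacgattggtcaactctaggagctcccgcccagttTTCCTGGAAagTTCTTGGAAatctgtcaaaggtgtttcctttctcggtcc
The Il2 window held 2 matches of GGAAA counted over both strands, which begin at bases 114 and 204 of the window. Of 32851 promoters of the same length, 26.7% held 2 or more. Other members held GGAAA too, with 4 matches in Cish, 2 in Il2rg, 1 each in Il2ra and Il7r and 0 in Il21r. Il15ra held 5 or 0 and Stat5a 0 or 1, depending on the start. The Cish window held 2 matches of TTCNNNGAA, which begin at bases 251 and 262, the first of them on the annotated start. Each overlapped a GGAAA match on its gene strand, and 0.457% of promoters held 2 or more TTCNNNGAA matches. Of the 8 members with a promoter in the RefSeq table, Il7r was the other one with a match, a single TTCAGGGAA at base 109 of its window, and 8.3% of promoters held at least 1. These are matches of letters and not measured sites.

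Before the results, some facts on the libraries bear on all of them. Between 6765529 and 17860611 reads per library fell in genes. Values are TPM, abundance per gene length and per library total, but the length used is the genomic span with introns, so levels are compared here between groups and not between genes. The 8 CD4 T cell markers (such as Cd3e, Cd4 and Lat) had medians of at least 1 TPM in each group, and their summed TPM ran from 1375 to 1752. GF aCD3 was not uniform: libraries F1, M3 and M4 lay close to GF isotype, at a mean absolute log2 distance over genes of 0.239, 0.265 and 0.232, against 0.746, 0.783 and 0.752 to SPF aCD3. Libraries M1, M2 and M5 lay nearer to SPF aCD3 (0.344, 0.321 and 0.258) than to GF isotype (0.596, 0.601 and 0.658). Lag3, a receptor induced on stimulated T cells, read 9.59 TPM in F1, 17.0 TPM in M3 and 12.3 TPM in M4, within the 5.41 to 18.5 TPM of GF isotype, while M1 read 498 TPM, M2 452 TPM and M5 527 TPM. Since F1, M3 and M4 were recognised by their expression, they were not set aside as a group; all 6 values are given below, with the effect of leaving out each library in turn. Whether the antibody acted in these 3 libraries and whether their labels hold was not tested, so each fold change and interaction below that uses GF aCD3 is that of the libraries as labelled. The column names also number the libraries 1 to 12 in SPF and, in GF, 25 to 33 or 48 to 54, so number range and colonisation cannot be told apart. The labels do not say which libraries come from separate animals, and p-values measure the spread between these libraries.

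In SPF mice, aCD3 went with lower Il2, Il7r, Cish, Il15ra and Il2rg and with higher Il2ra. These were the 6 of 10 genes with an adjusted p under 0.05 (limma, 12182 genes tested, all 10 members among them), where 64.8% of the genes tested passed, so that the number called is close to the background. Of the 6, 5 were lower (50.7% of genes tested) and 1 was higher (14.2%). The same 6 members did not overlap between the groups, and neither did 41.9% of genes (33.4% lower and 8.57% higher). Because the median gene moved by -0.35 on the log2 scale in this comparison, values relative to that median are given too, and a second scaling, by the median of ratios to a mean library, centres the genes (59.9% called, 29.3% lower and 30.6% higher).

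Markers of other cells moved with aCD3 in SPF mice too. The 7 B and plasma cell markers summed to 94.8 to 266 TPM in SPF isotype, mostly Jchain, and to 2.55 to 9.02 TPM in SPF aCD3. The 6 NK and innate lymphoid markers went from 32.6 to 48.9 TPM to 12.5 to 18.4 TPM in sum. Most of that fall was Klrb1c (mean 21.5 to 2.55 TPM), with Klre1, Ncr1 and Eomes lower too. Kit went the other way without overlap (mean 1.04 to 4.59 TPM), and the mean of Il1rl1 went from 4.73 to 5.72 TPM. The sum of the 9 myeloid and dendritic markers went from 15.8 to 33.4 TPM to 61.8 to 111 TPM, most of the latter from Cd68. Cd68, a lysosomal protein gene, had means of 5.99 and 76.5 TPM, while the means of Fcer1g (8.07 and 2.95 TPM), Itgax (1.24 and 0.29 TPM) and Xcr1 (8.78 and 5.62 TPM) were lower with aCD3, and Lyz2 was at 0.726 and 0.133 TPM. The 5 stromal markers summed to 13.99 to 36.8 TPM in SPF isotype and 2.53 to 4.44 TPM in SPF aCD3, the 4 erythroid markers to 2.29 to 7.07 and 0.716 to 1.28 TPM, and both CD8 T cell markers to medians of 8.11 and 17.1 TPM. Innate lymphoid cells are known to carry Il7r and Il15ra. The sort was for TCRb+ and CD4+ cells, and its purity was not measured here. The part of other cells in the changes of both genes was not tested. In bulk RNA, fewer cells that express a gene and less RNA of it per cell cannot be told apart.

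Il2 encodes the ligand itself (chr3:37120716-37125954, minus strand). It read 11.8, 16.3 and 21.8 TPM in SPF isotype (lowest, median and highest; 119 to 173 reads) and 0, 0.262 and 0.73 TPM in SPF aCD3 (0 to 7 reads, 20 reads over the 6 libraries). The groups did not overlap, and 1 SPF aCD3 library (M3) held no Il2 read. A count of 3 reads of Il2 was worth 0.235 to 0.617 TPM depending on the library, so levels within SPF aCD3 were near what can be counted at this depth. The group means, 16.8 ± 3.45 and 0.341 ± 0.302 TPM (SD, n = 6 each), differed 49.3-fold. The fitted log2 fold change was -3.74 (SE 0.50, adjusted p = 3.51e-06), or -3.39 relative to the median gene. The scale log2(TPM + 1) understates the change of so low a gene: the fit on recovered reads gave -5.43.

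In GF isotype, Il2 read 10.0, 16.4 and 21.9 TPM, much the same levels as in SPF isotype, and 8 of the 10 libraries lay between the lowest and highest SPF isotype value. In GF aCD3 the 6 libraries read 18.1 (F1), 1.54 (M1), 0.545 (M2), 19.3 (M3), 17.9 (M4) and 0.637 TPM (M5). Thus 3 libraries sat inside the GF isotype range and the other 3 at 1.54 TPM or less, 2 of them within the range of SPF aCD3, with no library in between. The log2 fold change in GF mice was -1.44 (SE 0.46, adjusted p = 0.052). The call turned on settings: it passed in 6 of 13 other settings, median-of-ratios scaling among them (-1.32, adjusted p = 0.049), with adjusted p-values from 0.0030 to 0.74 over the 13. Leaving out a library gave -1.88 to -1.08, called in 3 of 16 fits, those without F1, M3 or M4. The difference of the SPF and GF effects of aCD3 on Il2 was 2.30 (SE 0.68, adjusted p = 0.054), where 3.48% of genes passed, and 2.28 (adjusted p = 0.027) after median-of-ratios scaling. Over the 10 other settings this difference ran from 1.20 to 3.90 and was called in 5. Leaving out a library gave 1.86 to 2.66, called in 4 of 28 fits.

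**Figure D1:**
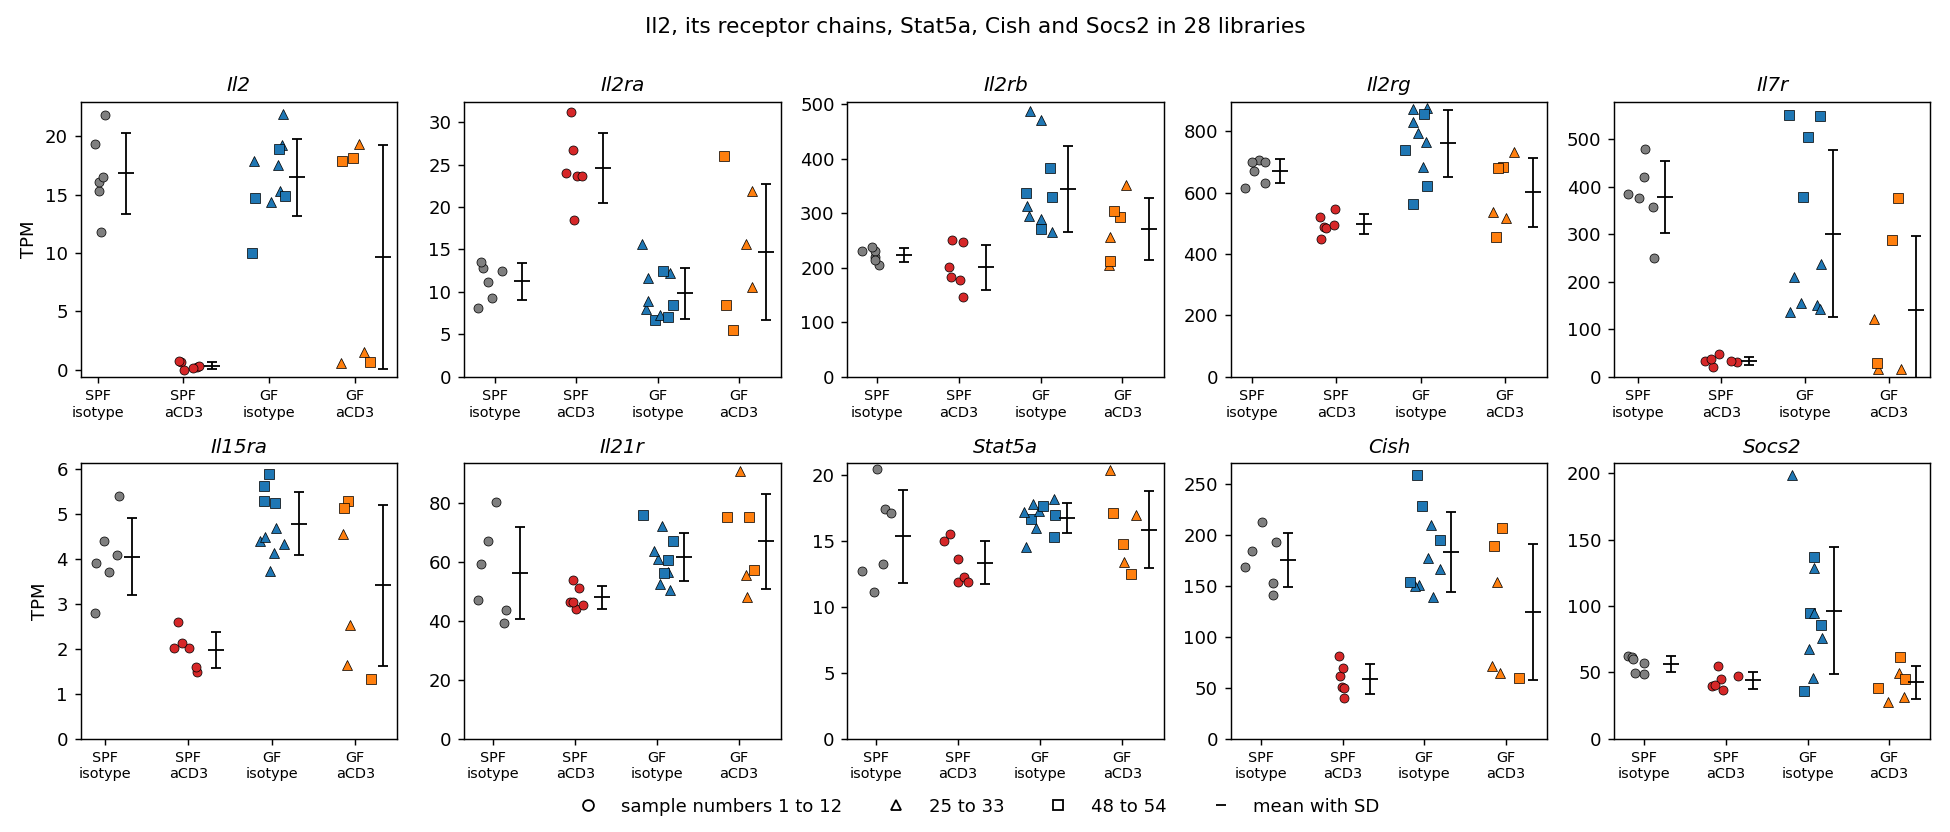
TPM of each of the 10 genes in every library (vertical axes linear, starting at or just under 0), by group on the horizontal axis. Symbol shape gives the range of the sample number, and the black bar to the right of each group is its mean with SD. Il2 falls to between 0 and 0.73 TPM in SPF aCD3, and the 6 GF aCD3 libraries split for Il2, Il7r, Il15ra and Cish.

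Among the receptor chains, Il2ra was the one that rose in SPF mice. Il2ra encodes CD25, the chain that gives the IL-2 receptor its high affinity (chr2:11642792-11693194, plus strand). It read 8.05, 11.8 and 13.5 TPM in SPF isotype and 18.5, 23.9 and 31.2 TPM in SPF aCD3. The groups did not overlap, the means differed 2.19-fold, and the log2 fold change was 1.07 (SE 0.26, adjusted p = 0.00088), or 1.42 relative to the median gene. GF isotype read 6.73, 8.67 and 15.7 TPM. GF aCD3 read 5.52 (F1), 15.7 (M1), 21.9 (M2), 10.6 (M3), 8.41 (M4) and 26.04 TPM (M5), so that the 3 libraries with low Il2 had the 3 highest Il2ra values. In GF mice the log2 fold change of 0.41 (SE 0.24) had an adjusted p of 0.21. Leaving out a library gave 0.23 to 0.73, called in 1 of 16 fits, that without F1.

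Il7r encodes the alpha chain of the IL-7 receptor (chr15:9506159-9529876, minus strand). In SPF isotype it read 249, 380.2 and 480.0 TPM, and in SPF aCD3 21.3, 32.8 and 47.2 TPM. The ranges lay far apart, the means differed 11.2-fold, and the log2 fold change was -3.46 (SE 0.59, adjusted p = 3.13e-05), or -3.11 relative to the median gene. In GF isotype the values spread over 136, 223 and 551 TPM, wider than in SPF isotype. Against SPF isotype the log2 fold change was -0.52 (adjusted p = 0.56). GF aCD3 read 377 (F1), 16.4 (M1), 16.7 (M2), 122 (M3), 287 (M4) and 28.97 TPM (M5), with M1 and M2 below and M5 within the SPF aCD3 range and the other 3 far above it. In GF mice the log2 fold change was -1.77 (SE 0.55, adjusted p = 0.0499). Leaving out a library gave -2.40 to -1.40, called in 3 of 16 fits, those without F1, M3 or M4. Between the aCD3 groups Il7r differed by 1.17 (adjusted p = 0.11), by -0.081 with GF numbers 25 to 33 alone and by 2.14 (adjusted p = 0.0055) with GF numbers 48 to 54 alone.

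The spread of Il7r in GF isotype followed the sample number, a split looked for after the data had been seen. The 6 libraries numbered 25 to 30 read 136, 153 and 238 TPM, and the 4 numbered 48 to 51 read 378, 526 and 551 TPM. The log2 difference was 1.54 (SE 0.14) in a fit of the 10 GF isotype libraries alone, with an adjusted p of 0.0012 and an exact two-sided permutation p of 0.00952, the smallest that 210 arrangements allow. In that fit 10.3% of all genes passed and Il15ra was the other member called (3.74 to 4.70 TPM against 5.25 to 5.91 TPM, log2 difference 0.30, adjusted p = 0.033, same permutation p). The exact p-values of the other 8 members were 0.0952 or higher, and Il2 gave 0.2. When the spread of all 28 libraries was used, 0.525% of genes passed and the adjusted p of Il7r was 0.295. Against SPF isotype, the libraries numbered 25 to 30 differed by -1.14 (adjusted p = 0.051) and those numbered 48 to 51 by 0.40 (adjusted p = 0.64). What else differs between the number ranges was not tested.

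Within each number range, GF aCD3 and GF isotype did not overlap for Il7r. Libraries M1, M2 and M3 (numbers 31 to 33) read at most 122 TPM against at least 136 TPM in numbers 25 to 30, and F1, M4 and M5 (numbers 52 to 54) read at most 377 TPM against at least 378 TPM in numbers 48 to 51. These margins were narrow for M3 and F1. Il7r was the 1 member of 10 below GF isotype without overlap in both ranges, where 0.263% of genes did so. With the number range as a covariate the log2 fold change was -1.99 (SE 0.42, adjusted p = 0.017). The fits within a single range gave -2.11 and -1.57 and were not significant (adjusted p = 0.31 and 0.73).

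**Figure D2:**
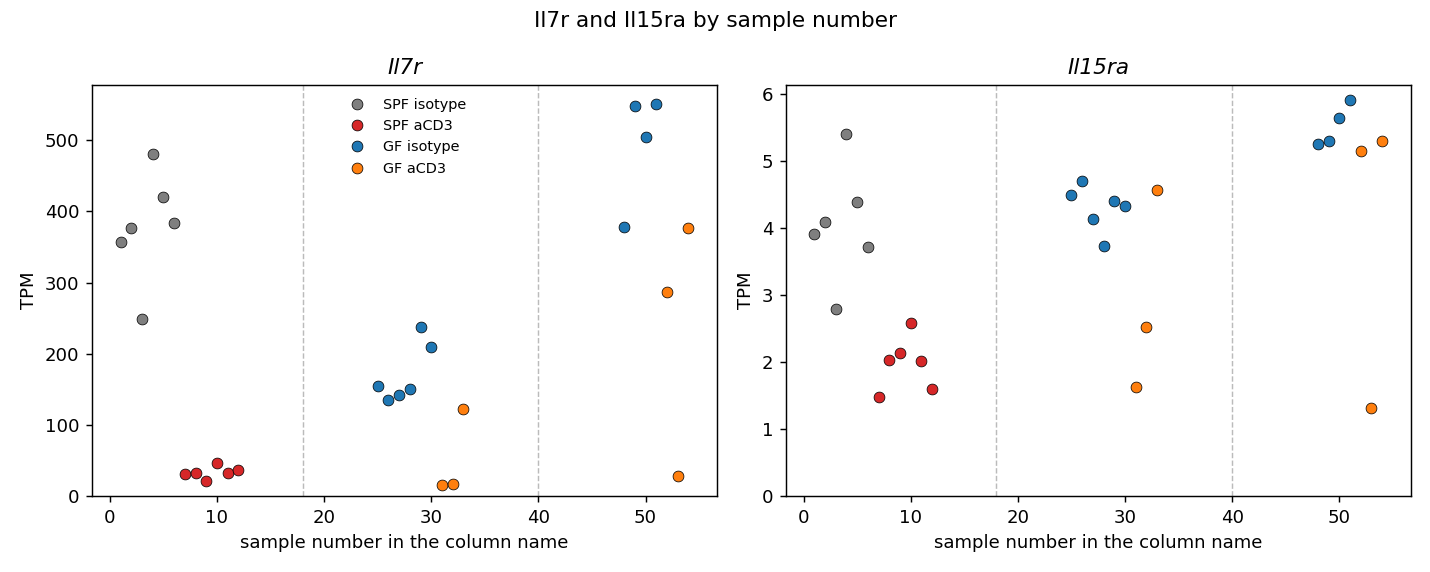
TPM of Il7r (left) and Il15ra (right) in each library against the sample number in the column name, coloured by group; dashed lines part the number ranges. The 4 GF isotype libraries numbered 48 to 51 lie above the 6 numbered 25 to 30 for both genes, at 378 to 551 against 136 to 238 TPM for Il7r.

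Il15ra encodes the chain that holds and presents IL-15 (chr2:11705712-11733985, plus strand). It read 2.80, 4.01 and 5.40 TPM in SPF isotype and 1.47, 2.02 and 2.59 TPM in SPF aCD3, without overlap. On the log2 scale the change was -0.76 (SE 0.20, adjusted p = 0.0017), or -0.41 relative to the median gene, and -0.46 (adjusted p = 0.012) after median-of-ratios scaling. GF isotype read 3.74, 4.60 and 5.91 TPM, and GF aCD3 read 5.30 (F1), 1.64 (M1), 2.52 (M2), 4.57 (M3), 5.14 (M4) and 1.32 TPM (M5). Again M1, M2 and M5 lay below every GF isotype value and F1, M3 and M4 within their range. The GF log2 fold change was -0.49 (SE 0.18, adjusted p = 0.071).

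Il2rg, the common gamma chain (chrX:101264385-101268255, minus strand), moved by about as much as the median gene. It read 616, 685 and 707 TPM in SPF isotype and 449.6, 491 and 546 TPM in SPF aCD3, without overlap. The log2 fold change of -0.43 (SE 0.11, adjusted p = 0.0017) was -0.09 relative to the median gene, and -0.01 (adjusted p = 0.93) after median-of-ratios scaling. In GF isotype it read 564, 778 and 876 TPM, and in GF aCD3 682 (F1), 536 (M1), 517 (M2), 732 (M3), 681 (M4) and 455 TPM (M5), a log2 fold change of -0.32 (SE 0.10, adjusted p = 0.055).

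Il2rb encodes the beta chain that IL-2 and IL-15 share (chr15:78480549-78495066, minus strand), and it was the member called between GF and SPF mice under the control antibody. It read 205, 225 and 238 TPM in SPF isotype and 266, 322 and 488 TPM in GF isotype, so that 10 of 10 GF isotype libraries lay above the highest SPF isotype library. The means, 344 ± 79.2 (SD, n = 10) and 223 ± 12.3 TPM (SD, n = 6), differed 1.54-fold. On the log2 scale GF isotype was higher by 0.59 (SE 0.12, adjusted p = 0.0048), and Il2rb was the 1 of 10 members called where 7.17% of genes were, 6.42% higher and 0.755% lower in GF. In 2.63% of genes the isotype groups did not overlap, 2.39% higher in GF. After median-of-ratios scaling the value was 0.44 (adjusted p = 0.018, 1.63% of genes called, 0.542% higher and 1.09% lower), and it passed in 16 of 16 fits that left out a library and within both number ranges (0.62 and 0.56).

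NK and CD8 T cells are known to carry Il2rb, so their markers are set beside it. The purity of the sort for TCRb+ and CD4+ cells was not measured here. The 6 markers of NK and innate lymphoid cells summed to 32.6 to 48.9 TPM in SPF isotype and 17.5 to 68.4 TPM in GF isotype. The GF isotype libraries with the highest Il2rb, F2 (471 TPM) and F3 (488 TPM), also had the highest sums (67.5 and 68.4 TPM). GF isotype libraries M1 to M4 had sums from 17.5 to 32.5 TPM, below every SPF isotype library, and 266 to 314 TPM of Il2rb. Cd8a read 5.19 to 12.7 TPM in SPF isotype, 0.944 to 6.997 TPM in 9 of the 10 GF isotype libraries and 60.0 TPM in M4, whose Il2rb was 271 TPM. Other sums also differed between the isotype groups, with medians of 178 TPM in SPF and 33.4 TPM in GF for B and plasma cells, 25.1 and 8.97 TPM for stromal cells and 5.69 and 13.2 TPM for epithelial cells. The part of any of these cells in the difference was not tested.

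With aCD3, Il2rb read 146, 192 and 250.4 TPM in SPF mice, a range that contained that of SPF isotype. Its log2 fold change was -0.17 (SE 0.14, adjusted p = 0.28), and it turned to 0.25 (adjusted p = 0.053) after median-of-ratios scaling, so no direction is given. GF aCD3 read 294 (F1), 206 (M1), 256 (M2), 352 (M3), 305 (M4) and 212 TPM (M5), a log2 fold change of -0.25 (SE 0.13, adjusted p = 0.15) against GF isotype.

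Il21r encodes the receptor chain for IL-21 (chr7:125603429-125633570, plus strand). It read 39.4, 53.3 and 80.5 TPM in SPF isotype and 44.1, 46.5 and 53.99 TPM in SPF aCD3, within the isotype range. The log2 fold change of -0.18 (SE 0.15, adjusted p = 0.30) became 0.23 after median-of-ratios scaling. GF isotype read 50.6 to 76.1 TPM and GF aCD3 47.99 to 91.0 TPM, with a log2 fold change of 0.09 (SE 0.14, adjusted p = 0.67).

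Stat5a, the transcription factor through which most of these receptors act (chr11:100860484-100885169, plus strand), was at 11.1, 15.2 and 20.4 TPM in SPF isotype and 11.8, 12.9 and 15.5 TPM in SPF aCD3. The log2 fold change of -0.17 (SE 0.12, adjusted p = 0.23) became 0.23 (adjusted p = 0.058) after median-of-ratios scaling. GF isotype read 14.5 to 18.2 TPM and GF aCD3 12.4 to 20.4 TPM, with a log2 fold change of -0.10 (SE 0.11, adjusted p = 0.53). With array weights Stat5a passed in SPF mice (-0.23, adjusted p = 0.042), where 72.1% of genes did.

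Cish, the feedback inhibitor whose promoter is printed above (chr9:107296659-107302784, plus strand), read 141, 176 and 213 TPM in SPF isotype and 40.2, 56.0 and 80.9 TPM in SPF aCD3. The groups did not overlap, the means differed 2.99-fold, and the log2 fold change was -1.59 (SE 0.24, adjusted p = 1.04e-05), or -1.24 relative to the median gene. In GF isotype it read 139, 171 and 259 TPM, again like SPF isotype. GF aCD3 read 189 (F1), 64.6 (M1), 71.4 (M2), 154 (M3), 207 (M4) and 59.7 TPM (M5), so the libraries with low Il2 were also those with low Cish. The GF log2 fold change was -0.60 (SE 0.22, adjusted p = 0.069), and its difference from the SPF effect was 0.98 (SE 0.33, adjusted p = 0.067).

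Socs2, a second STAT5-induced inhibitor (chr10:95411490-95415283, minus strand), was not called in SPF mice. It read 48.3, 58.2 and 62.4 TPM in SPF isotype and 36.7, 42.8 and 54.7 TPM in SPF aCD3, with 1 of 6 aCD3 libraries inside the isotype range. Its log2 fold change was -0.36 (SE 0.26, adjusted p = 0.24) and became 0.06 after median-of-ratios scaling. In GF isotype it spread over 35.6, 90.0 and 199 TPM, and no GF isotype library fell inside the narrow SPF isotype range: 2 were below it and 8 above. That difference had a log2 value of 0.61 (SE 0.24) and an adjusted p of 0.11. Without GF isotype M4, the lowest of the 10, it was 0.74 with an adjusted p of 0.035. GF aCD3 read 61.8 (F1), 27.7 (M1), 30.98 (M2), 49.5 (M3), 45.2 (M4) and 38.4 TPM (M5), which overlapped GF isotype, and the log2 fold change of -0.95 (SE 0.24) had an adjusted p of 0.048. It was called in 3 of 16 fits that left out a library (-1.11 to -0.82).

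**Figure D3:**
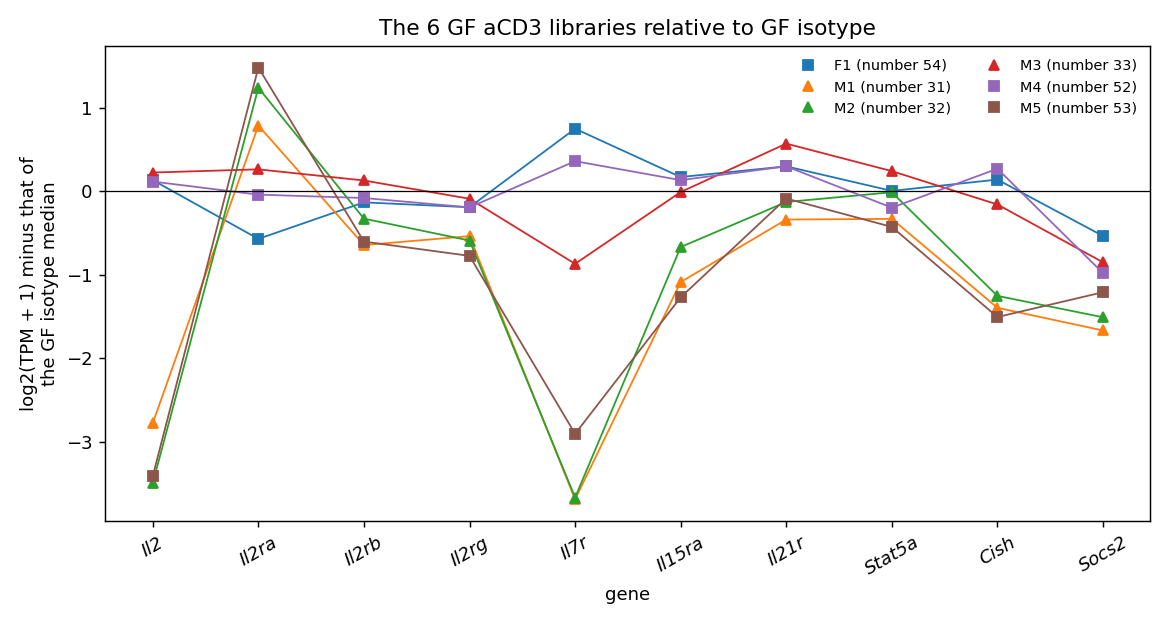
Each line is a GF aCD3 library; the vertical axis is log2(TPM + 1) minus the same for the GF isotype median of that gene, and 0 means equal to that median. M1, M2 and M5 lie between -3.49 and -2.78 for Il2 and between -1.51 and -1.25 for Cish, while F1, M3 and M4 lie between 0.12 and 0.23 for Il2.

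In GF mice as a whole, then, Il7r and Socs2 were the 2 of 10 members called, both lower, where 7.08% of genes were called (2.46% higher and 4.61% lower) and 6 of the 10 members had an unadjusted p under 0.05. After median-of-ratios scaling Il2 joined them, where 9.73% of genes passed (5.62% higher and 4.1% lower). No member separated the groups without overlap, which 0.0657% of genes did. Both calls sat near the threshold, and the number called ranged from 0 to 7 when a library was left out. It was 7 without F1, 7 without M3, 6 without M4, and 0 without any single one of M1, M2, M5 or the 10 GF isotype libraries. The share of all genes called moved in the same way, to 29.8%, 34.6% and 31.7% without F1, M3 and M4 and to 0% in the other fits, so this swing is not particular to the members. Markers of other cells also differed between the GF groups. The 5 pancreatic acinar markers summed to 0.976 to 60.0 TPM in GF isotype (median 1.82) and 2.11 to 425 TPM in GF aCD3 (median 25.5). Medians went from 42.0 to 22.3 TPM for the NK and innate lymphoid sum, from 33.4 to 13.99 TPM for B and plasma cells, from 2.90 to 8.57 TPM for CD8 T cells, from 35.7 to 54.7 TPM for myeloid and dendritic cells and from 13.2 to 7.62 TPM for epithelial cells. Within the NK and innate lymphoid sum, Klrb1c was lower (mean 22.1 to 8.72 TPM) and Kit higher (0.706 to 1.98 TPM). Within the myeloid and dendritic sum, Cd68 was higher (mean 10.4 to 29.9 TPM), while Xcr1 (21.8 to 17.9 TPM) and Fcer1g (4.59 to 3.01 TPM) were lower. The part of these other cells in the GF values was not tested. The interaction of colonisation and treatment had 0 of 10 members called by limma, with 3 at an unadjusted p under 0.05, where 3.48% of genes passed (2.44% higher and 1.04% lower). After median-of-ratios scaling 1 passed, Il2, where 11.7% of genes did (5.16% higher and 6.52% lower), and in the fit on recovered reads 2 did, Il2 and Cish, beside 13.3% of genes. The count was also 2, Il2 and Cish, without SPF isotype F3 or without GF aCD3 M1, M2 or M5, where 17%, 16.8%, 20.4% and 26.2% of all genes passed, so that 2 of 10 is near the background there.

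Between the aCD3 groups, 7 of 10 members were called, where 53.3% of genes were. GF aCD3 was higher for Il2 (log2 fold change 2.27, SE 0.51), Cish (1.03), Il2rb (0.52), Il15ra (0.48), Il21r (0.44) and Il2rg (0.28), and lower for Il2ra (-0.86, SE 0.27). The median gene moved by 0.34. Leaving out a library gave 0.30 to 0.63 for Il15ra, called in 4 of 12 fits, and 0.22 to 0.35 for Il2rg, called in 5. Il21r was called in 9 of the 12 and Il2ra in 11. Over 11 other settings Il2 ran from 1.17 to 3.79 and was called in 11. After median-of-ratios scaling 3 members passed, Il2 (2.10), Cish (0.62) and Il2ra (-1.25), where 32.7% of genes did, while Il2rb was at 0.11, Il15ra at 0.17 and Il21r at 0.03, and Il2rg reversed to -0.13. Of all genes tested, 48.9% were higher and 4.46% lower before that scaling, and 15.8% and 16.9% after it. This comparison mixes the 3 libraries near GF isotype with the 3 near SPF aCD3: the number called was 3 without F1, 4 without M3 or M4, and 8 without M1 or M2. Of all genes, 40.1% were called without F1, 43.5% without M3, 44.1% without M4, 57.1% without M1 and 56.9% without M2. Without F1, Il2ra no longer passed (-0.54, adjusted p = 0.075). Medians of the marker sums in SPF aCD3 and GF aCD3 were 17.1 and 8.57 TPM for CD8 T cells, 6.08 and 13.99 TPM for B and plasma cells, 87.1 and 54.7 TPM for myeloid and dendritic cells, and 15.1 and 22.3 TPM for NK and innate lymphoid cells. They were 2.39 and 25.5 TPM for pancreatic acinar cells, 3.20 and 7.62 TPM for epithelial cells and 3.77 and 7.17 TPM for stromal cells. Single markers could run against their sum. Means of Cd68 were 76.5 and 29.9 TPM, but those of Xcr1 were 5.62 and 17.9 TPM. Kit had means of 4.59 and 1.98 TPM, against the NK and innate lymphoid sum. The part of these other cells was not tested. Male and female libraries differed in 0 of 10 members (1 at an unadjusted p under 0.05; 0.107% of genes called). No member separated the 2 aCD3 groups without overlap, which 13% of genes did.

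**Figure D4:**
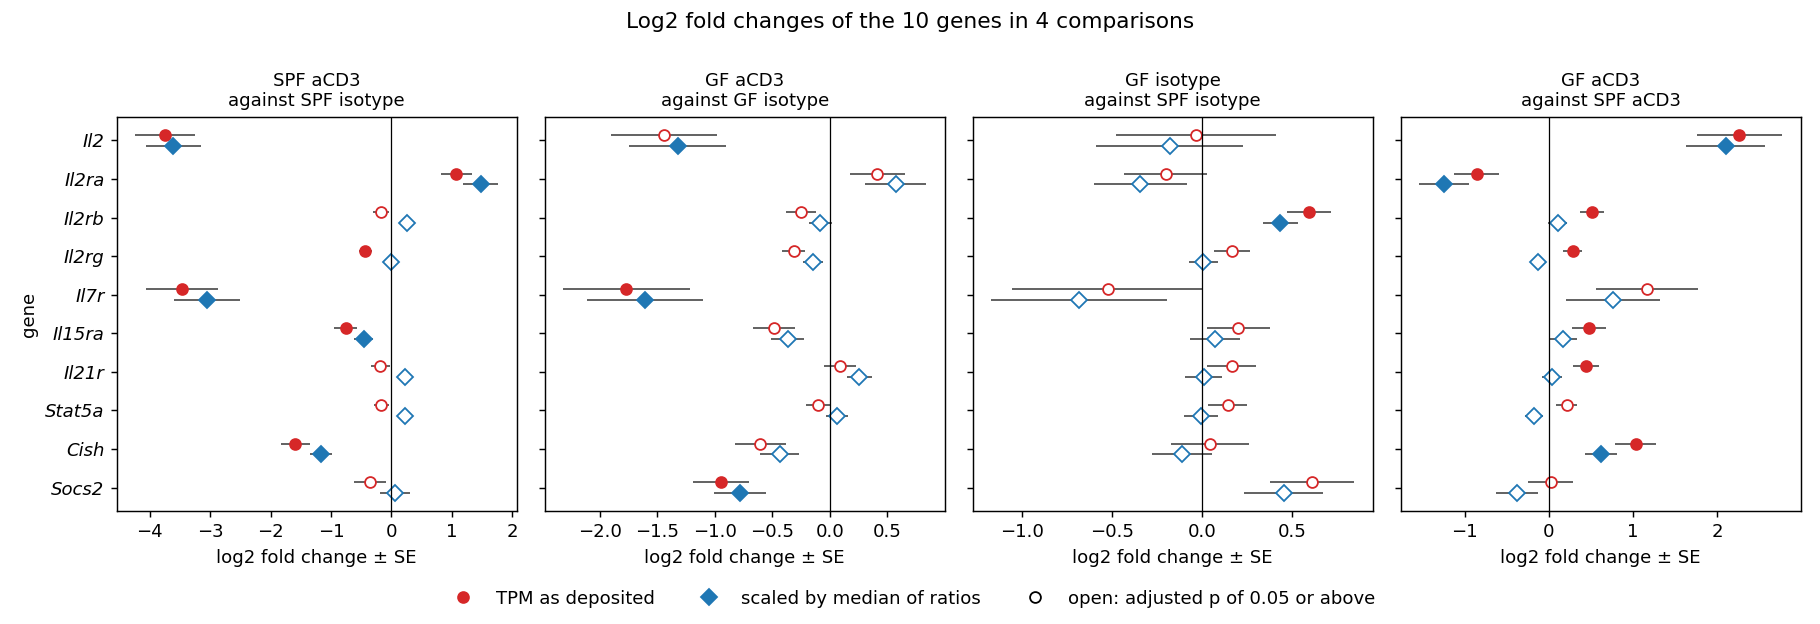
Log2 fold change with SE of each gene on the horizontal axis (axis ranges differ between panels), on TPM as deposited (circles) and after median-of-ratios scaling (diamonds). Filled symbols have an adjusted p under 0.05. In SPF mice Il2 (-3.74) and Il7r (-3.46) lie far left of the other genes and Il2ra (1.07) lies to the right.

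The other genes of the pathway came from lists chosen with earlier results of these data known, so their counts describe and do not support. They are read beside the shares of all genes tested, in SPF mice 14.2% higher and 50.7% lower with aCD3 (30.6% and 29.3% after median-of-ratios scaling), and in GF mice 2.46% and 4.61%. Of the 5 other gamma chain ligands, 2 passed the filter on low values. Il21, the cytokine of follicular and Th17-type helper cells, rose with aCD3 in SPF mice from 24.0 ± 8.02 to 79.4 ± 21.8 TPM (SD, n = 6 each; log2 fold change 1.71, adjusted p = 0.00034). Il9 was listed at 0 in all 28 libraries, and Il7 and Il15, which are made mainly by other cells, stayed under 0.5 TPM. Of 3 other receptor chains tested, Crlf2, the TSLP receptor, rose (27.8 to 57.0 TPM, log2 fold change 1.01), while Il9r (8.51 to 0.986 TPM, -2.24) and Il4ra (40.6 to 19.4 TPM, -0.998) fell.

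Of 6 kinases and other STATs, 1 rose and 4 fell in SPF mice (median log2 fold change -0.37, beside -0.35 for all genes). Jak3, the kinase bound to the gamma chain, rose (75.3 to 112 TPM, log2 fold change 0.57), and Stat6, the factor of IL-4 signalling, and the kinase gene Jak1 fell (-0.92 and -0.53). Both counts are near the shares of all genes. After median-of-ratios scaling 2 rose and 2 fell. Of 8 feedback genes and phosphatases, none rose and 6 fell (median -0.55), among them Sh2b3, an adaptor that dampens JAK signalling (13.7 to 3.03 TPM, -1.85), and Pias1, a STAT inhibitor (-1.18), and after that scaling 2 rose and 3 fell. In GF mice no gene of these 4 lists passed, and 1 kinase or STAT rose and 1 feedback gene fell after that scaling.

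Of 14 genes known as STAT5 targets in T cells, 4 rose (28.6%) and 6 fell (42.9%) in SPF mice (median -0.01), beside 14.2% and 50.7% of all genes, and after median-of-ratios scaling 8 rose and 4 fell. Tnfrsf4, the costimulatory receptor OX40, rose from 66.9 to 416 TPM (log2 fold change 2.62), and Gzmb, the cytotoxic protease granzyme B, from 1320 to 4772 TPM (1.82). Bcl2, the survival factor, fell from 98.1 to 17.6 TPM (-2.38), and the kinase Pim2 fell from 37.3 to 18.2 TPM (-1.01). In GF mice 2 of the 14 passed, both lower, Bcl2 (-0.98) and Osm (-0.68). In SPF mice the list thus held genes that rose, as Il2ra did, and genes that fell, as Cish did.

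Of 16 transcription factors known to act on the Il2 promoter, 13 fell (81.2%, beside 50.7% of all genes) and 1 rose (6.25%, beside 14.2%) in SPF mice, with a median of -0.998 beside -0.35 for all genes. Fos fell from 2635 to 495 TPM (-2.41) and Jun from 2296 to 432 TPM (-2.39), both subunits of AP-1, and Nfatc3 rose (42.8 to 58.0 TPM, 0.44). Means of Crem (136 to 68.8 TPM), Ikzf1 (73.3 to 42.6 TPM) and Zeb1 were lower with aCD3 too. The list was not split into activators and repressors of Il2, so its counts give no direction for Il2. After median-of-ratios scaling 12 of the 16 fell and 2 rose. In GF mice 3 fell (2 after that scaling), among them Fos (-0.91) and Jun (-0.83). Jun was also lower in GF isotype than in SPF isotype (876 against 2296 TPM, log2 fold change -1.42), and Nfatc1 was higher (62.5 against 45.3 TPM, 0.46; 0.31 with adjusted p = 0.073 after median-of-ratios scaling); these 2 of 16 were called there, beside 6.42% of all genes higher and 0.755% lower, and after that scaling 0 were higher and 3 lower. Between the isotype groups Il2 itself differed by -0.03 (SE 0.44, adjusted p = 0.97).

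Of 11 other CD4 T cell cytokines tested, 3 rose (27.3%) and 4 fell (36.4%) in SPF mice, beside 14.2% and 50.7% of all genes. Il10 rose from 92.3 to 654 TPM (log2 fold change 2.81) and Il17a from 59.8 to 340 TPM (2.32), whereas Xcl1 fell from 83.1 to 7.29 TPM (-3.36) and Cd40lg, the CD40 ligand, from 222 to 29.2 TPM (-2.88). In GF mice 2 of the 11 (18.2%, beside 4.61% of all genes) fell, Cd40lg (-1.18) and Tnf (-0.50), and none rose; after median-of-ratios scaling 1 fell and 1 rose. Il22 was lower in GF isotype than in SPF isotype (3.64 against 30.4 TPM, -2.79), the 1 of 11 called there under both scalings.

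Between the aCD3 groups, where 48.9% of all genes were higher in GF and 4.46% lower, the lists had 1 higher of 2 ligands tested, 2 of 3 receptor chains, 5 of 6 kinases and STATs, 6 of 8 feedback genes and 13 of 16 transcription factors, and none lower. After median-of-ratios scaling the counts of higher genes were 0, 1, 0, 2 and 6 and of lower genes 0, 1, 2, 1 and 1, beside 15.8% and 16.9% of all genes. Il4 (log2 difference 1.08), Il4ra (0.60), Jak1 (0.42), Stat6 (0.47) and Junb (1.04) were higher and lost the call after that scaling. Il9r (1.58), Sh2b3 (1.46), Pias1 (0.81) and Crem (1.19) were higher under both scalings. Of the 14 STAT5 targets 6 were higher, among them Bcl2 (1.66) and Pim2 (1.02), and 3 lower, among them Gzmb (-1.34) and Tnfrsf4 (-1.29); after median-of-ratios scaling 4 were higher and 5 lower, and the median went from 0.18 to -0.20. Of the 11 cytokines 5 were higher, among them Xcl1 (3.09) and Cd40lg (1.86), and 4 lower, among them Il17a (-3.10) and Il22 (-2.93), and 4 and 4 after that scaling.

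By likeness over the 28 libraries, the 3 genes nearest to Il2 of 8003 candidates were Map3k14, Rasgrp1 and Msl2, with mean absolute differences of 0.118, 0.118 and 0.127 between standardised log2 values. Map3k14 is the NF-kappaB-inducing kinase, and Rasgrp1 couples the T cell receptor to Ras. Nearest to Il2ra were Hif1a (0.305), Satb1 (0.322) and Slfn10-ps (0.336), and nearest to Il7r were Card6 (0.164), Pik3ip1 (0.189) and Itga1 (0.192). Nearest to Cish were Dzip1 (0.163), Xylt2 (0.167) and Sgpp1 (0.189). Among the members, Cish was nearest to Il2 (0.271) and Il2ra farthest (1.69). The libraries of a group share their treatment and colonisation, so these distances describe the pattern over 4 groups more than 28 separate points.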

How the data were processed

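RNA of sorted CD4+ T cells was sequenced in 28 libraries. Per the file headers, the authors deposited TPM computed with HOMER over RefSeq transcripts on mm10, and in 99.24% of rows the length equals the genomic span. The labels name a total RNA kit and, elsewhere, polyA RNA, which was not settled here; the aligner version and use of strand are not given in the sources used here. Of 54 TPM columns, 26 matched no sample and were not used. Low TPM values were whole multiples of 1 read in 100.0% of cases (tolerance 0.15 read), so reads were recovered. Rn45s took 11.4% to 22.9% of a library. Floors of 3 reads cover counting error only.

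Genes with at least 1 TPM in at least 6 libraries were tested on log2(TPM + 1) in a limma 3.58.1 model (R 4.3.3) of 4 group means and sex, with a mean-variance trend, over 28 libraries. p-values were adjusted by Benjamini-Hochberg over 12182 genes, with a threshold of 0.05. On simulated data, 87.9% of 99 genes changed 2-fold and 100% of 99 changed 4-fold between the SPF groups were recovered, and 10 of 12262 unchanged genes were called. The simulation gave every group the SPF isotype profile and every gene the same spread, and changed few genes, as many up as down. It held no shift of the median gene and no split within GF aCD3. It therefore does not give the share of false calls in the real comparisons. Values were handled with Python 3.11.15, NumPy 2.4.6, pandas 2.3.3 and SciPy 1.17.1.

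The 10 members are named throughout. Of each list and group comparison, the 2 highest and 2 lowest genes past the threshold with a mean of at least 5 TPM in a group were named. Likeness used tested genes with a mean of at least 5 TPM in a group. Members and lists were chosen with earlier results of these data known. Alternatives were other scalings, pseudocounts, filters, voom on recovered reads, array weights, no sex term, a replicate block, number ranges, and leaving out each library.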

Additional observations from a re-analysis of the deposited data

How the results depend on the processing

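Shares in brackets are of all genes called in the same fit. In SPF mice the count of 6 (64.8%) was 5 with median-of-ratios scaling (59.9%), voom (58.8%) or without Rn45s and histone genes (58.6%), 7 with array weights (72.1%), 4 when a log2 change of 1 or more was also asked for (1940 genes of 12182), and 6 in the other settings and when any library was left out; Il2, Il2ra, Il7r and Cish kept their direction and their call in each setting, and Il15ra in each but the one that also asked for a log2 change of 1 or more, which it did not reach. The GF count of 2 (7.08% of all genes) became 1 without Rn45s and histone genes (5.5%), 0 with a pseudocount of 0.1 or no filter, where 0 of all genes were called, 3 with median-of-ratios scaling (9.73%) or voom (7.78%), 4 with TPM of at least 5 (12.3%), 6 with array weights (29.8%), no sex term (20.3%) or the number range as a covariate (18.2%), 0 within either range alone (1 gene of 12182 in each), 1 when a change of 1 or more (log2) was also asked for (99 genes), and 0 to 7 without a library. Deviations of same-named replicates from their group means correlated weakly (r from -0.03 to 0.10 in SPF and -0.21 to 0.20 in GF). With a single pair of libraries per name, this cannot tell whether they share more than a name. With a replicate block the members called were 6 in SPF, 0 in GF and 0 for the interaction. With the block, all genes called were 7589, 0 and 17, and the colonisation contrasts could not be fitted. The GF isotype count of 1 against SPF isotype (7.17%) became 2 without Rn45s and histone genes (19.7%), 0 when a change of 1 or more (log2) was also asked for (49 genes) and 1 to 2 without a library. The count of 7 between the aCD3 groups (53.3%) became 3 with median-of-ratios scaling (32.7%), voom (35.7%), array weights (30.2%) or GF numbers 25 to 33 alone (30.8%; chosen after seeing the data), 6 with numbers 48 to 54 alone (48.7%), 5 without Rn45s and histone genes (45.9%) or with no filter (30.4%), 6 with a pseudocount of 0.1 (53.7%), TPM of at least 5 (57.6%) or no sex term (53.3%), 2 when a change of 1 or more (log2) was also asked for (667 genes), and 3 to 8 without a library. The interaction count of 0 (3.48%) became 1 with median-of-ratios scaling (11.7%), without Rn45s and histone genes (4.97%), with a pseudocount of 0.1 (6.35%) or TPM of at least 5 (4.83%), 2 with voom (13.3%), and 0 to 2 without a library. For male against female it was 0 in each setting.

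Reversed values, in the order median-of-ratios, without Rn45s and histone genes, and voom, were in SPF aCD3 against isotype Il2rb 0.25, 0.10 and 0.20, Il21r 0.23, 0.085 and 0.19, and Stat5a 0.23, 0.091 and 0.20; Socs2 reversed to 0.059 (median-of-ratios) and 0.0013 (voom). In GF they were Stat5a 0.059, 0.018 and 0.045, and Il21r -0.036 with array weights. For GF against SPF isotype they were Il2 0.0076 without Rn45s and histone genes and 0.080 in numbers 25 to 33, Il7r 0.40 in numbers 48 to 54, Stat5a -0.0028 (median-of-ratios), and Cish -0.11 (median-of-ratios), -0.042 (voom), -0.045 (array weights) and -0.081 (numbers 25 to 33). Between the aCD3 groups they were Il2rg -0.13 and -0.040 and Stat5a -0.17 and -0.094 (median-of-ratios, voom), Il7r -0.081 (numbers 25 to 33), and Socs2 -0.38, -0.086, -0.26, -0.11 (array weights), -0.095 (no sex term) and -0.17 (numbers 25 to 33). For the interaction they were Il2rb 0.026 (replicate block), Il2rg -0.14, -0.033 and -0.12, and Stat5a -0.17, -0.073 and -0.16. Leaving out a library gave Il2 -0.15 to 0.055 and Cish -0.050 to 0.14 between isotype groups, Il21r -0.00027 to 0.17 in GF, Socs2 -0.066 to 0.11 between aCD3 groups, and Stat5a -0.0039 to 0.16 for the interaction. The cause of these changes was not tested. Depth limits Il2 in SPF aCD3, where 20 reads carry the group.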
